A study of Mus musculus with 8 samples.

Results

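The 10 genes described here encode the 2 surface proteins on which the cells were sorted, Epcam and Cd24a, and 8 other surface receptors and adhesion molecules of crypt epithelium, Kit, Cd44, Cdh1, Itga6, Itgb4, Itgb1, Alcam and Cd47. They were taken by name, not by their values, from the 53801 genes of the count table, and all 10 passed the filter on low counts. The libraries are RNA-seq of small-intestinal Paneth cells from 4 β-catGOF; Mll1+/- mice (controls 1 to 4) and 4 β-catGOF; Mll1-/- mice (knockouts 1 to 4). Both groups thus carry the gain-of-function β-catenin allele, and the groups differ in having lost 1 or both copies of Mll1 (gene symbol Kmt2a), a histone H3K4 methyltransferase. Both alleles were recombined by a tamoxifen-inducible Cre under the Lgr5 promoter (Lgr5-EGFP-IRES-CreERT2), which acts in stem cells and leaves a mosaic of recombined and non-recombined crypts. Per the labels, tamoxifen was injected at 1 mg on 3 consecutive days and tissue was taken 10 d after induction. Mice of both sexes, 4 to 6 weeks old at induction, were used, and their genetic background is not given in the sources used here. The study's methods paragraph on the sort names Mll1 flox littermates without β-catGOF, whereas the series description gives the β-catGOF genotypes used here.

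Epcam is a homophilic adhesion protein found on intestinal epithelial cells in general, and CD24, a small glycosylated protein anchored in the membrane by lipid, is high on Paneth cells and lower on stem cells. The cells were stained for both and for CD45, together with a dye for dead cells, and the gate is named in the methods as viable EpCAM+ Cd24+. Because both proteins selected the cells, the presence of their RNA is not a result. CD24 is also carried by enteroendocrine and tuft cells. Kit is the receptor of stem cell factor and in the crypt marks secretory cells at the base. Cd44 is a hyaluronan receptor and a Wnt target of the crypt base. Cdh1 (E-cadherin) forms the adherens junctions to which β-catenin binds. Integrin α6 (Itga6) pairs with β4 (Itgb4) in the hemidesmosome-type laminin receptor and with β1 (Itgb1) in focal contacts. Alcam (CD166) is an immunoglobulin-type adhesion protein of the stem cell and Paneth cell zone, and Cd47 binds thrombospondin-1 and is the ligand of the phagocyte receptor Sirpa.

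The library totals lay between 13037832 and 14380240 counts. Knockout 3 stood apart: 19662 genes had a count there against 22623 to 26074 elsewhere, mitochondrial genes took 2.04% of its counts against 3.26% to 8.78%, and its TMM factor was 0.632 against 0.821 to 1.34. Results are therefore also given without it. Summed over 13 Paneth markers, led by the defensin gene Defa24, Lyz1 and Itln1, the level was between 280858 and 562753 normalized CPM (counts scaled to library sizes adjusted by TMM factors) in the controls and between 265622 and 789719 in the knockouts, or up to 347059 without knockout 3. The sum was thus high in every library, but not each marker was abundant. Defa24 alone had at least 183208 normalized CPM in every library, whereas Wnt3 had 16.5 to 31.0. The median log2 fold change of the 13 markers was −0.09, and −0.51 without knockout 3, with none of the 13 called in either fit. Of 13 leukocyte markers, 10 had at most 3 counts in each library, as did 6 of 9 mast cell markers. Kmt2a had 719, 469, 268 and 284 counts in controls 1 to 4 and 523, 447, 328 and 468 in knockouts 1 to 4, with a log2 fold change of −0.06 (SE 0.24, adjusted p = 0.995 by edgeR's quasi-likelihood test). This count sums the reads of all exons, so it does not show whether the targeted exon was lost. The labels carry 2 runs of library numbers, with 2 controls and 2 knockouts in each, which are called library set 1 (controls 1 and 2, knockouts 1 and 2) and library set 2. The difference of mean log2 levels of Kmt2a was −0.54 in set 1 and 0.51 in set 2.

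None of the 10 genes was called different between the genotypes, and 0 of 10 stands beside 0.186% of the 13439 tested genes that were called (0.156% higher and 0.0298% lower in the knockouts). A call needed both an adjusted p no higher than 0.05 (edgeR's quasi-likelihood test, Benjamini-Hochberg over all tested genes) and a log2 change of 0.5 or more in either direction. DESeq2's Wald test and limma-voom with quality weights, which can give a library less weight, also called 0 of the 10. At an unadjusted p under 0.05, 1 of the 10 passed, Cd47, against 6.88% of all tested genes. In none of the 10 did the knockouts and the controls lie entirely apart, which was so in 4.52% of all tested genes (2.59% with the knockouts higher). The estimate was higher in the knockouts for 6 genes and lower for 4, or higher for 9 when counts were scaled by library totals without TMM factors, a setting that moved the median of all genes to 0.25. The median log2 fold change over the 10 was 0.11, beside 0.01 over all tested genes. Their median size was 0.21, beside 0.18 over 5133 tested genes within the range of mean levels of the 10. That range ran from 8.12 (Itgb4) to 1101 normalized CPM (Cd24a). Every 95% interval of the 10 lay within a log2 change of 1 in either direction, so a 2-fold difference lay outside each interval. A bulk library cannot tell fewer cells of a type from less RNA per cell, and p-values here measure the spread between these libraries.

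**Figure D1:**
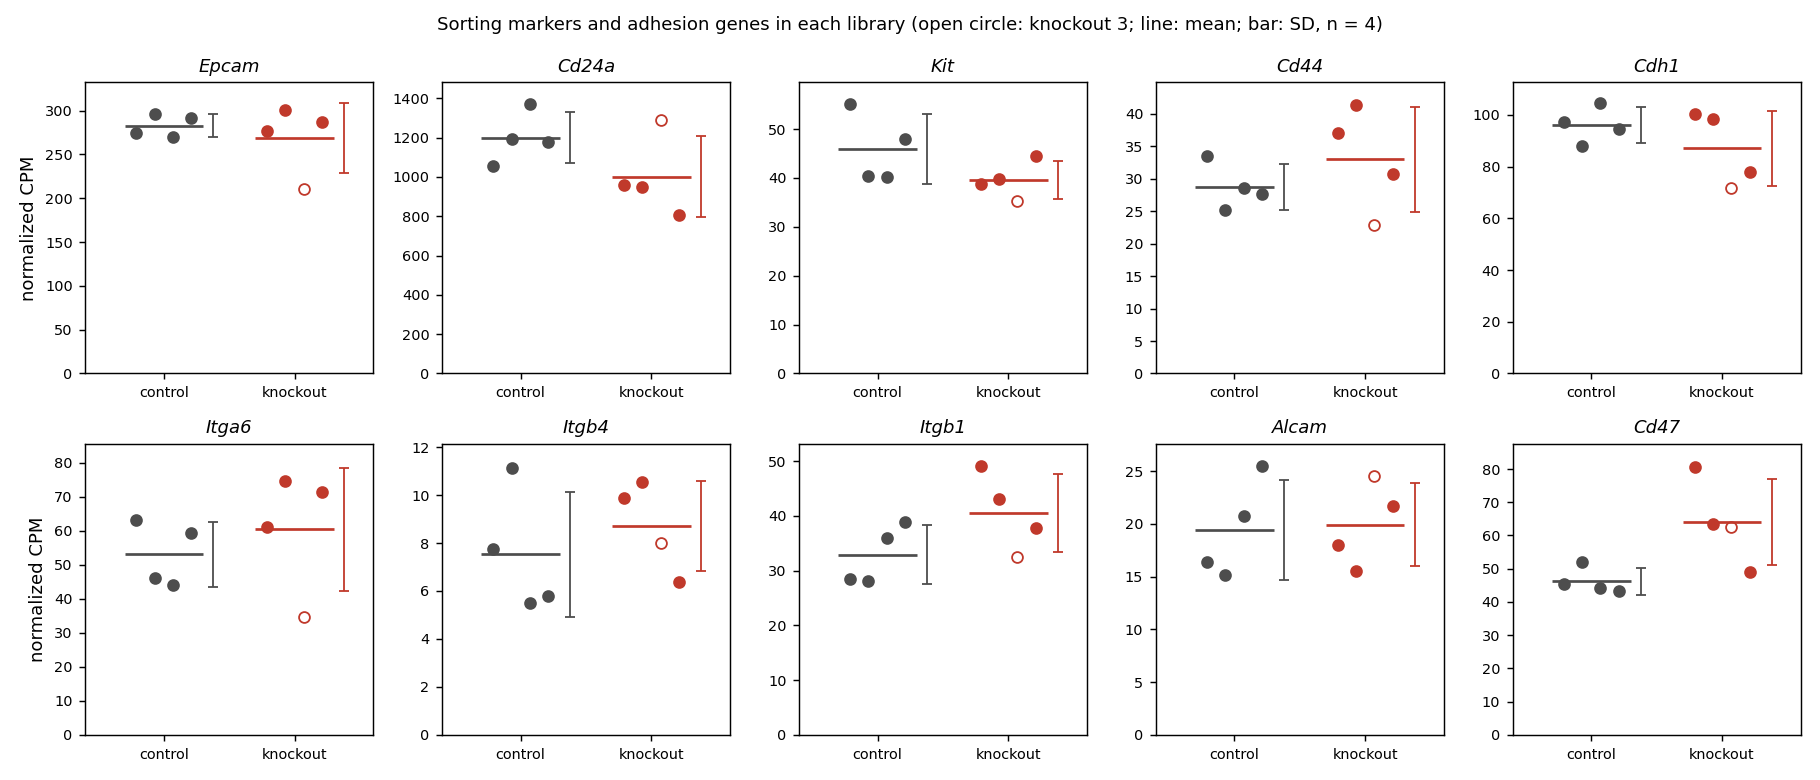
Normalized CPM (vertical axes, from 0) of the 10 genes in each of the 4 control and 4 knockout libraries, with the group mean as a line, the SD as a bar and knockout 3 as an open circle. In every panel the points of the groups overlap; in Cd47, 3 knockouts lie above all controls, and in Cd24a and Kit, 3 knockouts lie below all controls.

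The 10 genes covered a wide range of levels, which were compared between genes as normalized CPM per kb of merged exon. Cd24a was the highest, with 427 ± 73.9 (SD, n = 8 libraries), followed by Epcam with 135 ± 13.9 and Cdh1 with 20.0 ± 2.53. Among the per-kb levels of all tested genes these stood at percentiles 99.5, 98.8 and 94.1. Both genes of the gate were near the top of the transcriptome of these cells, levels that are not independent of the sort on their proteins. E-cadherin lay in the same upper range. The middle of the order held Itgb1 with 9.01 ± 1.75, Cd47 with 8.78 ± 2.07, Itga6 with 6.30 ± 1.55, Kit with 4.80 ± 0.711 and Cd44 with 4.56 ± 0.913. Alcam was at 2.76 ± 0.566, and Itgb4 was the lowest of the 10 with 1.16 ± 0.313, at percentile 42.2. Of the 9 neighbouring pairs in this order, 7 differed within libraries at an adjusted p of at most 0.0201 (exact sign-flip permutation test over 8 libraries, two-sided, adjusted over 9 pairs; the smallest p the test allows is 0.0078). The pairs that did not differ beyond their spread were Itgb1 and Cd47, with Itgb1 higher in 4 of 8 libraries (exact permutation p = 0.664), and Kit and Cd44, with Kit higher in 6 of 8 (exact permutation p = 0.453). The middle of the order depended on the length used. With the longest transcript in place of merged exons, Itga6 moved to 13.2 ± 3.24 and stood ahead of Cd47 with 10.5 ± 2.48 and Itgb1 with 9.63 ± 1.88, whereas the first 3 and the last 4 places held. By that length 6 of the 9 pairs passed: Kit and Cd44 then differed (exact permutation p = 0.0078), whereas Itga6 and Cd47, Cd47 and Itgb1, and Itgb1 and Kit did not differ beyond their spread (exact permutation p = 0.109, 0.273 and 0.141).

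**Figure D2:**
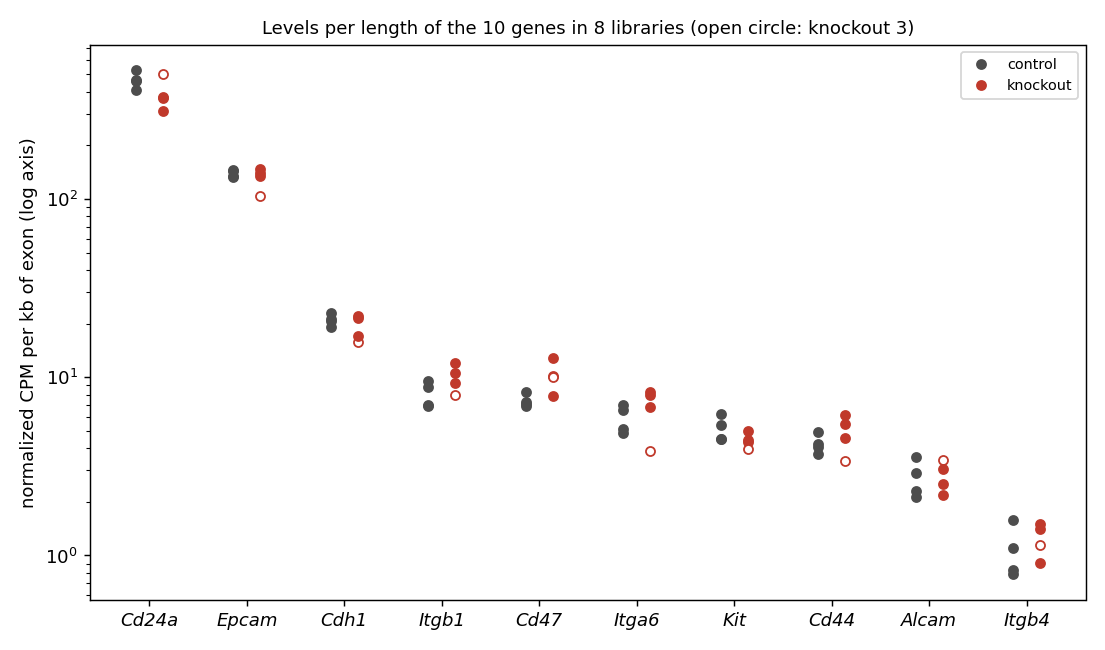
Level of each of the 10 genes in normalized CPM per kb of merged exon (vertical axis, log scale), 1 point per library, controls in grey and knockouts in red, with knockout 3 as an open circle. Cd24a and Epcam lie above all other genes in every library, and Itgb4 is at the bottom with a mean of 1.16.

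Epcam (ENSMUSG00000045394, mm10 chr17:87635979-87651106, plus strand) was the steadiest of the 10. Controls 1 to 4 had 275, 296, 270 and 291 normalized CPM and 276, 301, 211 and 287 were found in knockouts 1 to 4. The 3 knockouts other than knockout 3 lay in or just above the range of the controls, and knockout 3 alone lay below it. The mean was 283 ± 12.8 for the controls and 269 ± 39.9 for the knockouts (SD over 4 libraries). Between the groups the log2 change was −0.07 (SE 0.17, 95% interval −0.46 to 0.31, adjusted p = 0.985 by edgeR's quasi-likelihood test, exact permutation p = 0.743). Its sign turned to 0.02 without knockout 3 and to 0.22 with library totals, which is −0.03 relative to the median of all genes. Over the 8 libraries the coefficient of variation was 10.3%, or 4.14% without knockout 3, beside a median of 19.8% over the 10 genes. The median was 22.9% over all tested genes within the range of levels of the 10, which is not matched to the level of Epcam.

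Cd24a (ENSMUSG00000047139, chr10:43578284-43584265, plus strand) had 1058, 1195, 1369 and 1179 normalized CPM in controls 1 to 4 and 958, 949, 1291 and 807 in knockouts 1 to 4. Knockouts 1, 2 and 4 lay below every control, and knockout 3 lay above 3 of the 4 controls. The mean was 1200.2 ± 128 for the controls and 1001 ± 205 for the knockouts (SD over 4 libraries). The fit gave a log2 fold change of −0.26 (SE 0.22, 95% interval −0.75 to 0.23, adjusted p = 0.916 by edgeR's quasi-likelihood test, exact permutation p = 0.114), or −0.06 with library totals, which is −0.31 relative to the median of all genes. Without knockout 3 it was −0.41 (95% interval −0.80 to −0.02), an unadjusted p of 0.0403 and an adjusted p of 0.411 in the edgeR fit. The estimate had the same sign in both library sets, with a difference of mean log2 levels of −0.24 in set 1 and −0.32 in set 2.

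Dividing Cd24a by Epcam within a library needs no scaling between libraries. The ratio of read counts was 3.85, 4.04, 5.08 and 4.05 in controls 1 to 4 and 3.47, 3.16, 6.13 and 2.81 in knockouts 1 to 4. Again 3 knockouts lay below every control, and knockout 3 had the highest ratio of all 8 libraries. The log2 difference was −0.19 (exact two-sided permutation p = 0.514, adjusted over 4 ratios p = 0.914). Without knockout 3 it was −0.43, with an exact permutation p of 0.0286, the smallest that 4 against 3 libraries can give and not adjusted over the 4 ratios. With any other library left out it ran from −0.23 (without control 1) to −0.06 (without knockout 4), with exact permutation p from 0.514 to 0.886. The ratio of Cdh1 to Epcam, both general epithelial genes, was 0.341 ± 0.0393 for the controls and 0.326 ± 0.0393 for the knockouts (SD over 4 libraries; exact permutation p = 0.6).

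Of the markers of enteroendocrine and tuft cells, which also carry CD24, none was called in the edgeR fit of all 8 libraries. All 10 enteroendocrine markers had a lower estimate, with a median log2 fold change of −1.28, 6 at an unadjusted p under 0.05, where 2.53% of all tested genes were lower, and a summed level of 407 to 1420 normalized CPM in the controls and 46.0 to 1877 in the knockouts. The 1877 was knockout 3 and came mostly from the hormone gene Gip, at 1687 normalized CPM there. The other 3 knockouts lay between 46.0 and 401, below every control. Neurod1, a transcription factor of that lineage, had 24.8, 22.2, 57.1 and 42.2 normalized CPM in the controls and 12.6, 3.74, 5.42 and 8.46 in the knockouts, which is a log2 change of −2.27 (SE 0.40, adjusted p = 0.0629 in the edgeR fit), and 6 of 17 alternatives called it. Tph1, the serotonin-synthesis enzyme, had 113 to 284 counts in the controls, 53 and 2 in knockouts 1 and 4, and 0 in knockouts 2 and 3. All 8 tested tuft markers also had a lower estimate, with a median of −0.91, 2 at an unadjusted p under 0.05, and a summed level of 260 to 648 in the controls against 130 to 421 in the knockouts. Among them Rgs13 had a log2 fold change of −1.47 (SE 0.33, adjusted p = 0.171 in the edgeR fit), and 4 of 17 alternatives called it. Lower estimates were not particular to these 2 lists. Of 6 tested enterocyte markers 4 had a lower estimate, with a median of −0.83, 2 at an unadjusted p under 0.05 and none called. Of 8 stem cell markers 5 were lower and 3 higher, with a median of −0.25, 3 and 2 at an unadjusted p under 0.05 and none called. Of 10 goblet markers 4 were lower and 6 higher, with a median of 0.13 (−0.28 without knockout 3), 2 lower and 0 higher at an unadjusted p under 0.05 and none called. The part of any of these cells in the level of Cd24a was not tested.

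**Figure D3:**
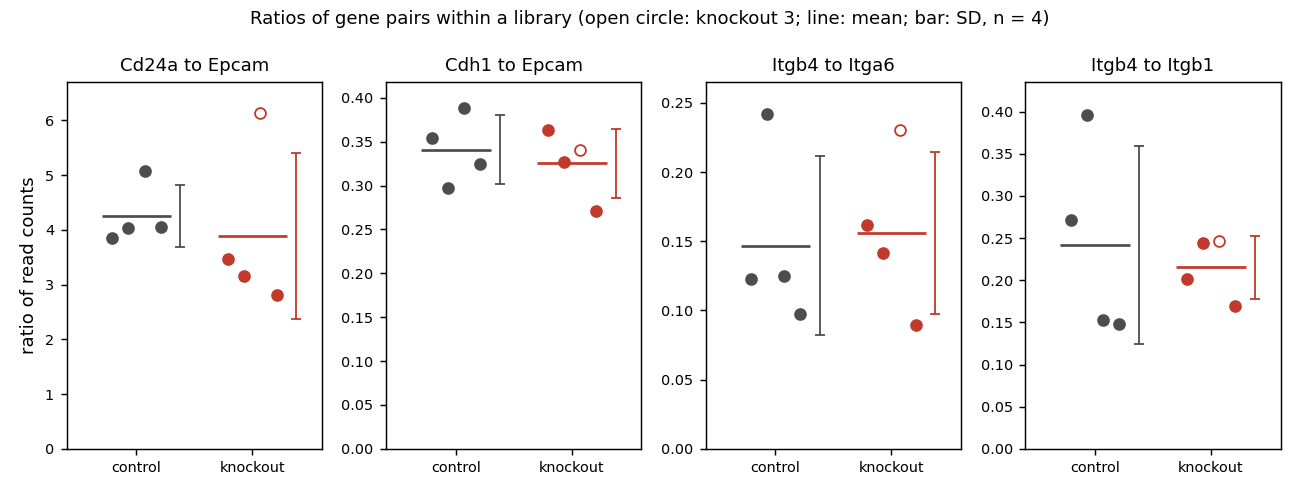
Ratios of read counts of 2 genes within each library (vertical axes, from 0) for the 4 controls and 4 knockouts, with the mean as a line, the SD as a bar and knockout 3 as an open circle. Knockout 3 holds the highest Cd24a to Epcam ratio, 6.13, while the other knockouts lie at 2.81 to 3.47, below the controls.

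The genes whose levels ran most like those of Epcam over the 8 libraries, by Pearson correlation of log2(normalized CPM + 1), were Ndufa9 (r = 0.996), Arfip1 (0.993) and Lsm4 (0.991). Without knockout 3 they were Kifap3 (0.984), Slc30a2 (0.978) and Ndufa9 (0.966), so 1 of the 3 names held. For Cd24a they were Mrs2 (0.977), Ankrd31 (0.974) and Slc22a15 (0.961) over 8 libraries and Entpd7 (0.994), Serpinb1a (0.990) and Vps26c (0.979) over 7, and none of the 3 names held. Epcam and Cd24a did not run together (r = −0.45 over 8 libraries, −0.27 over 7). These are the highest of 13439 correlations over few points that share their scaling, and are given as a description.

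Kit (ENSMUSG00000005672, chr5:75574916-75656722, plus strand) had 55.2, 40.3, 40.1 and 48.1 normalized CPM in controls 1 to 4 and 38.7, 39.8, 35.2 and 44.6 in knockouts 1 to 4. Knockout 4 lay within the range of the controls and the other 3 just below it. The log2 fold change was −0.21 (SE 0.17, 95% interval −0.58 to 0.15, adjusted p = 0.913 by edgeR's quasi-likelihood test), or 0.03 with library totals, which is −0.22 relative to the median of all genes. Without knockout 3 the log2 fold change was −0.17, and without control 1 it was −0.11. Mast cells are the other intestinal cells rich in Kit, and apart from 48 counts of Ms4a2 in knockout 3 no mast cell marker had more than 6 counts in a library. Interstitial cells carry Kit as well. The summed level of 9 stromal and interstitial markers was 5.15 to 8.24 normalized CPM in the controls and 6.74 to 10.3 in the knockouts, led by the endothelial gene Pecam1 and by Ano1, which had between 12 and 50 counts.

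The ligand of Kit was named because it had the smallest p in the edgeR fit among the tested ligands and counter-receptors. Its estimate was larger in size than that of the receptor, but no test compared these genes. Kitl (stem cell factor) had 11.5, 3.74, 12.5 and 9.03 normalized CPM in controls 1 to 4 and 31.7, 37.3, 9.19 and 24.2 in knockouts 1 to 4. Knockouts 1, 2 and 4 lay above every control, whereas knockout 3 lay among the controls. Knockouts against controls, the log2 change was 1.48 (SE 0.43, adjusted p = 0.390 by edgeR's quasi-likelihood test, exact permutation p = 0.0857), which was not called. Without knockout 3 it was 1.75 (SE 0.32, adjusted p = 0.0240 in the same test), past both limits, where 1.08% of tested genes were called. Leaving out each library in turn gave edgeR adjusted p-values from 0.0240 to 0.685. Of 17 alternatives 3 called it, this fit and, with all 8 libraries, limma-voom with quality weights on the libraries and the edgeR test with no filter on low counts.

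Cd44 (ENSMUSG00000005087, chr2:102811141-102901665, minus strand) had 33.6, 25.2, 28.5 and 27.6 normalized CPM in controls 1 to 4 and 37.0, 41.4, 22.9 and 30.8 in knockouts 1 to 4. Knockouts 1 and 2 lay above all controls and knockout 3 below all of them. The estimated log2 change was 0.20 (SE 0.20, 95% interval −0.24 to 0.64, adjusted p = 0.943 by edgeR's quasi-likelihood test), with a difference of 0.43 in library set 1 and −0.08 in set 2. Without knockout 3 it was 0.34 (adjusted p = 0.477 in the edgeR fit). With any other library left out it ran from 0.07 (without knockout 2) to 0.29 (without control 1). The count sums the standard and the variant exons of Cd44, so a shift between splice forms would not be seen. Of 6 splicing regulators of Cd44 and Itga6 variants, all tested, none was called or passed an unadjusted p under 0.05. The smallest p among them belonged to Khdrbs1 (Sam68), with a log2 fold change of 0.40 (SE 0.22), and to Rbfox2, with 0.37 (SE 0.22). Of 6 linkers of Cd44 to the cytoskeleton 5 were tested and none was called or passed an unadjusted p under 0.05, with a median of −0.02. Radixin (Rdx) had 1.05 (SE 0.85), with 1 count in control 4 and in knockout 3, and Slc9a3r1 had −0.14 (SE 0.19).

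Cdh1 (ENSMUSG00000000303, chr8:106603351-106670246, plus strand) had 97.4, 87.9, 105 and 94.6 normalized CPM in controls 1 to 4 and 100.4, 98.4, 71.8 and 77.8 in knockouts 1 to 4. Knockouts 1 and 2 lay among the controls and knockouts 3 and 4, both of library set 2, below all of them. The difference of mean log2 levels was 0.10 in set 1 and −0.41 in set 2. The log2 fold change over all libraries was −0.14 (SE 0.17, 95% interval −0.51 to 0.22, adjusted p = 0.956 by edgeR's quasi-likelihood test), or 0.15 with library totals, which is −0.10 relative to the median of all genes. Without knockout 3 the log2 fold change was −0.06 (adjusted p = 0.910 in the edgeR fit).

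Of 18 genes of adherens junctions and desmosomes around Cdh1, 14 were tested, 9 with a higher and 5 with a lower estimate, a median log2 fold change of 0.11 and none called. At an unadjusted p under 0.05, 2 were higher, Dsg2 and Ctnnb1, where 4.35% of all tested genes were higher. Dsg2 (desmoglein 2, the desmosomal cadherin of simple epithelia) had 61.7, 55.4, 60.7 and 61.2 normalized CPM in controls 1 to 4 and 114, 127, 76.0 and 81.2 in knockouts 1 to 4. Every knockout lay above every control, and the controls lay close together. The log2 fold change was 0.74 (SE 0.19, adjusted p = 0.312 by edgeR's quasi-likelihood test, exact permutation p = 0.0286, the smallest that 4 against 4 can give). Without knockout 3 it was 0.84 (SE 0.16, adjusted p = 0.0296 in the edgeR fit), and DESeq2's Wald test on all 8 libraries gave an adjusted p of 0.0398. It was called in 4 of 17 alternatives and in 1 of the 8 fits with a library left out, where the edgeR adjusted p reached 0.649, and the adjusted p was 0.577 with library totals. Of its exon bases, 3.99% are shared with a gene on the opposite strand, and the strand setting of the counting is not given.

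Ctnnb1 encodes β-catenin, the gene that carries the gain-of-function allele in both groups. Its level was 11.6, 15.5, 14.9 and 24.1 normalized CPM in controls 1 to 4 and 27.4, 26.6, 15.2 and 33.0 in knockouts 1 to 4. Knockouts 1, 2 and 4 lay above every control and knockout 3 among the controls. Between the groups the log2 change was 0.63 (SE 0.28, adjusted p = 0.680 by edgeR's quasi-likelihood test), and 14.6% of its exon bases are shared with Ulk4 on the opposite strand.

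Itga6 (ENSMUSG00000027111, chr2:71745616-71858416, plus strand) had 63.1, 46.1, 43.9 and 59.5 normalized CPM in controls 1 to 4 and 61.2, 74.6, 34.8 and 71.4 in knockouts 1 to 4. Knockouts 2 and 4 were the highest of the 8 libraries and knockout 3 the lowest. The fit gave a log2 fold change of 0.19 (SE 0.24, 95% interval −0.33 to 0.71, adjusted p = 0.963 by edgeR's quasi-likelihood test). Without knockout 3 it was 0.37 (95% interval 0.01 to 0.74, unadjusted p = 0.0445, adjusted p = 0.421 in the edgeR fit). With any other library left out it ran from 0.07 (without knockout 2) to 0.29 (without control 1).

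Its partner in the hemidesmosome, Itgb4 (ENSMUSG00000020758, chr11:115974709-116008412, plus strand), had 7.73, 11.1, 5.49 and 5.78 normalized CPM in controls 1 to 4 and 9.89, 10.5, 8.01 and 6.39 in knockouts 1 to 4. All knockouts lay within the range of the controls. The log2 fold change was 0.21 (SE 0.29, 95% interval −0.42 to 0.84, adjusted p = 0.969 by edgeR's quasi-likelihood test), and it ran from 0.08 without control 3 to 0.45 without control 2. With 61 to 183 counts it was the most thinly counted of the 10, and counting error alone was up to 12.8% of a library's value. Of its exon bases, 7.66% are shared with a transcript on the opposite strand.

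Itgb1 (ENSMUSG00000025809, chr8:128685654-128733200, plus strand), the β chain that most α chains pair with, had 28.5, 28.1, 36.0 and 39.0 normalized CPM in controls 1 to 4 and 49.1, 43.1, 32.5 and 37.7 in knockouts 1 to 4. Knockouts 1 and 2 lay above every control and knockouts 3 and 4 among them. The difference of mean log2 levels was 0.70 in library set 1, where both knockouts lay above both controls, and −0.10 in set 2. The log2 fold change over all libraries was 0.31 (SE 0.19, 95% interval −0.10 to 0.71, adjusted p = 0.853 by edgeR's quasi-likelihood test), and without knockout 3 it was 0.39 (unadjusted p = 0.0395, adjusted p = 0.408).

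The ratio of Itgb4 to Itga6 counts was 0.147 ± 0.0647 for the controls and 0.156 ± 0.0584 for the knockouts, and that of Itgb4 to Itgb1 was 0.242 ± 0.118 and 0.215 ± 0.0371 (SD, n = 4 each). Neither differed beyond the spread of the libraries (exact permutation p = 0.8 and 0.914).

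Of 14 other integrin chains 7 were tested, and none was called. Itgav, the αv chain of vitronectin and fibronectin receptors, had 5.53, 4.14, 6.30 and 5.94 normalized CPM in controls 1 to 4 and 8.40, 8.06, 13.2 and 10.9 in knockouts 1 to 4. Every knockout lay above every control, with a log2 fold change of 0.88 (SE 0.26, adjusted p = 0.390 by edgeR's quasi-likelihood test). Itga4, a chain of leukocytes, had 13 to 49 counts in the controls and 3 to 12 in the knockouts, with a log2 fold change of −1.70 (SE 0.68, adjusted p = 0.658 in the edgeR fit). Over the 7 tested chains the median was −0.12, with 3 higher and 4 lower.

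Inside the cell, 12 of 15 genes that anchor integrins or hemidesmosomes were tested, with 8 higher, 4 lower, a median of 0.13 and none called. Fermt1 (kindlin-1), which binds β integrin tails and activates them, had 30.0, 23.3, 33.2 and 32.3 normalized CPM in controls 1 to 4 and 36.5, 35.9, 48.5 and 50.3 in knockouts 1 to 4. Every knockout lay above every control, with a log2 fold change of 0.53 (SE 0.19, adjusted p = 0.540 by edgeR's quasi-likelihood test). Paxillin (Pxn) had −0.37 (SE 0.31). Outside the cell, 6 of 10 laminin chains were tested, 5 with a higher estimate and none called. Lamc1, the γ1 chain, had 19 to 36 counts in the controls and 45 to 73 in the knockouts, with a log2 fold change of 0.85 (SE 0.34, adjusted p = 0.658 in the edgeR fit). Lamb2 had between 4 and 21 counts, too few to place it further. The median of the 6 laminin chains was 0.69, and 0.15 without knockout 3.

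Alcam (ENSMUSG00000022636, chr16:52248996-52454074, minus strand) had 16.3, 15.1, 20.7 and 25.5 normalized CPM in controls 1 to 4 and 18.0, 15.6, 24.5 and 21.7 in knockouts 1 to 4. All knockouts lay within the range of the controls. Knockouts against controls, the log2 change was 0.04 (SE 0.22, 95% interval −0.45 to 0.52, adjusted p = 0.995 by edgeR's quasi-likelihood test), the closest to 0 of the 10, and its sign turned under limma-voom with quality weights (−0.13), upper-quartile factors (−0.0070) and 4 of the 8 fits with a library left out.

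Cd47 (ENSMUSG00000055447, chr16:49800533-49915010, plus strand) had the largest difference of the 10. Its level was 45.5, 52.0, 44.2 and 43.1 normalized CPM in controls 1 to 4 and 80.7, 63.6, 62.6 and 49.2 in knockouts 1 to 4. Knockouts 1, 2 and 3 lay above every control, and knockout 4 lay between control 2 and the other controls. The mean was 46.2 ± 4.00 for the controls and 64.0 ± 12.9 for the knockouts (SD over 4 libraries). The estimated log2 change was 0.47 (SE 0.18, 95% interval 0.08 to 0.86), with an unadjusted p of 0.0223 and an adjusted p of 0.595 by edgeR's quasi-likelihood test and an exact permutation p of 0.0571. It was thus not called. The estimate was 0.48 without knockout 3, 0.56 within library set 1 and 0.34 within set 2, and it was higher in the knockouts under all 17 alternatives run, from 0.34 to 0.72. Knockout 3, which was lowest of the 8 libraries for 5 of the 10 genes, was higher than every control here.

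Of 14 ligands and counter-receptors of the 10 genes 5 were tested, all with a higher estimate, and none was called in the edgeR fit of all 8 libraries. Besides Kitl, described above, Thbs1 (thrombospondin-1, a ligand of Cd47) had 16.2, 47.0, 35.6 and 59.0 normalized CPM in controls 1 to 4 and 85.6, 67.5, 52.3 and 55.2 in knockouts 1 to 4. Knockouts 1 and 2 lay above all controls. The log2 fold change was 0.73 (SE 0.33, adjusted p = 0.713 by edgeR's quasi-likelihood test). Of 12 partners and shedding enzymes of Epcam 11 were tested, 3 higher and 8 lower, and none was called. Adam10, a protease that sheds adhesion proteins including E-cadherin and Cd44, had 23.5, 17.3, 25.8 and 16.9 normalized CPM in controls 1 to 4 and 41.6, 44.9, 16.8 and 29.2 in knockouts 1 to 4. Knockouts 1, 2 and 4 lay above every control and knockout 3 level with the lowest control, with a log2 fold change of 0.67 (SE 0.29, adjusted p = 0.671 in the edgeR fit). Prss8, a serine protease of epithelial membranes, had −0.33 (SE 0.26).

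**Figure D4:**
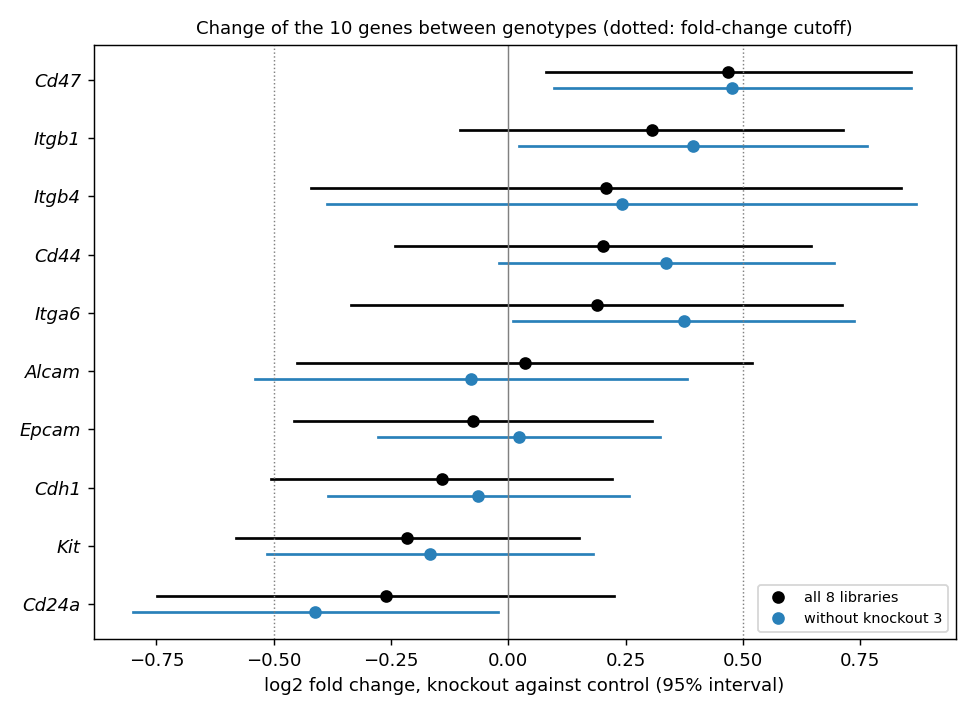
Log2 fold change of knockouts against controls for the 10 genes (horizontal axis), with 95% intervals, from all 8 libraries in black and without knockout 3 in blue, and dotted lines at the limit of 0.5. No gene passed both limits of a call; Cd47 has the highest estimate, 0.47, and Cd24a the lowest, −0.26. With library totals in place of TMM factors the estimates of Epcam, Kit and Cdh1 turn positive.

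Among the surrounding lists, 1 gene was called in the edgeR fit of all 8 libraries, where 0.156% of all tested genes were called higher. Cadm1 (ENSMUSG00000032076, chr9:47530173-47857637, plus strand), an immunoglobulin-type adhesion molecule that binds to itself and to other nectin-like proteins across cell contacts, had 2.58, 2.63, 3.06 and 1.82 normalized CPM in controls 1 to 4 and 17.5, 15.1, 7.19 and 9.86 in knockouts 1 to 4. Every knockout lay more than 2-fold above every control, and knockout 3 was the lowest of the knockouts. Cadm1 rose with a log2 fold change of 2.30 (SE 0.33, adjusted p = 0.0178 by edgeR's quasi-likelihood test, exact permutation p = 0.0286). The estimate lay between 2.10 and 2.49 with each library left out in turn, but only 2 of these 8 fits, those without knockout 3 or without knockout 4, called it. Without any 1 of the controls, knockout 1 or knockout 2 the adjusted p lay between 0.0523 and 0.103, and it was 0.0971 with library totals, in the same edgeR test. Cadm1 lies on the chromosome of Kmt2a, 2.65 Mb away, and shares no exon bases with another gene. For a gene at this distance, loss of Mll1 and alleles carried along with the floxed locus cannot be told apart.

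The other 12 tested immunoglobulin-type adhesion genes held no call, with a median over all 13 of −0.15, 6 higher and 7 lower. Of 15 other surface proteins used to sort crypt cells 11 were tested and none was called. Tspan8, a tetraspanin of the epithelial surface, had 172, 150, 135 and 122 normalized CPM in controls 1 to 4 and 109, 99.1, 78.8 and 84.1 in knockouts 1 to 4. Every knockout lay below every control, with a log2 fold change of −0.64 (SE 0.18, adjusted p = 0.350 by edgeR's quasi-likelihood test). Of 17 alternatives 1 called it, DESeq2's Wald test (adjusted p = 0.0485), and none of the 8 edgeR fits with a library left out did. With library totals the estimate was −0.39 (adjusted p = 0.910). Ephb3, a receptor that positions Paneth cells at the crypt base, had 10.1 to 12.9 normalized CPM in the controls, 12.7 to 13.8 in knockouts 1, 2 and 4 and 23.3 in knockout 3, with a log2 fold change of 0.42 (SE 0.24) that was 0.17 without knockout 3.

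**Figure D5:**
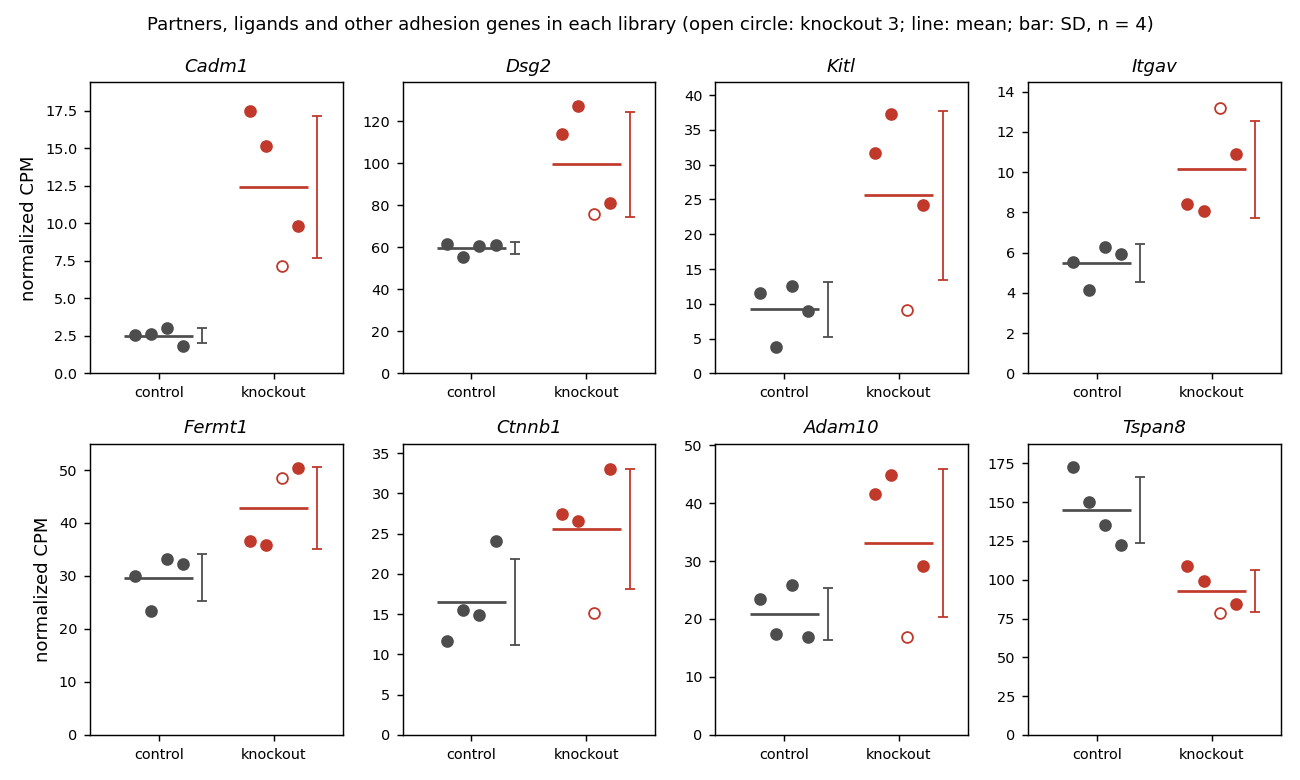
Normalized CPM (vertical axes, from 0) of 8 partner, ligand and other adhesion genes in each of the 4 controls and 4 knockouts, with the mean as a line, the SD as a bar and knockout 3 as an open circle. The groups lie apart in Cadm1, Dsg2, Itgav, Fermt1 and Tspan8 and overlap in Kitl, Ctnnb1 and Adam10. In the edgeR fit of all 8 libraries Cadm1 was the one called. The 8 genes were named for a call or for the smallest p in their lists, so lying apart follows partly from that choice. Groups lay apart in 4.52% of all tested genes.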

How the data were processed

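Sorted Paneth cells of 4 control and 4 knockout mice were amplified by the Smart-seq2 protocol, in which PCR copies of a molecule are counted as separate reads, so counting errors are minimum errors. The authors used GSNAP and the mm10 transcriptome for alignment, and deposited raw counts of uniquely mapped reads per gene from featureCounts 1.6.3 on Ensembl release 92, without normalization. The 92 spike-in rows were left out. Symbols were matched by identifier for 53620 of 53801 genes. Every pair of libraries differed by more than sampling noise.

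Groups follow the genotype labels, and replicate numbers are names that pair no libraries. The 13439 genes passing filterByExpr (minimum count 10, minimum total 15) were tested in 1 fit with edgeR 4.0.16 (R 4.3.3, limma 3.58.1, TMM, robust quasi-likelihood). Standard errors and intervals were approximated from F. Within-library ratios and single genes had exact two-sided permutation tests. DESeq2 1.42.0, limma-voom with quality weights, other scalings, filters, a library-set block and each library left out were alternatives. Library totals were added after the data were seen.

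The 10 genes and all lists were chosen with earlier results of these data known. Named from each list were called genes, otherwise up to 2 genes with the smallest p. Ly6a, which passed the filter only without knockout 3, was chosen after its values were seen. Some list genes were tested and counted but are not reported here.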

Additional observations from a re-analysis of the deposited data

Results flagged for a closer look

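Of 28 sets of 4 values examined (each of the 10 genes and 4 ratios in each group), 1 had a member set apart from the other three, where chance gives about 1.4. In the ratio of Cd24a to Epcam, control 3 lay at 5.08 and the other controls at 3.85 to 4.05. The gap took up 0.841 of the range, above Dixon's limit for 4 values. Leaving control 3 out changed the log2 difference between the groups from −0.19 to −0.10 (exact permutation p = 0.83).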

How the results depend on the processing

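All 17 alternatives left the count of called genes among the 10 at 0, and 160 of their 170 single-gene estimates kept their sign. The number of genes called over all tested genes, 25, was 290 with no filter on low counts, 13 with at least 10 counts in every library, 138 with DESeq2's Wald test, 95 with limma-voom and quality weights, 15 with library totals, 38 at a 10% false discovery rate and 10 (without control 3) to 152 (without knockout 3) with a library left out. Adding the library set as a term gave 24, and it stayed at 25 with DESeq2's size factors, with upper-quartile factors and without the 50 most abundant genes. Signs turned with library totals for Epcam (0.22), Kit (0.029) and Cdh1 (0.15), where the median of all genes was 0.25. They turned for Alcam with upper-quartile factors (−0.0070) and limma-voom with quality weights (−0.13). With a library left out Epcam ran from −0.13 to 0.022, Alcam from −0.080 to 0.19, the ratio of Cdh1 to Epcam from −0.13 to 0.017, Itgb4 to Itga6 from −0.12 to 0.37 and Itgb4 to Itgb1 from −0.25 to 0.22. The cause was not tested. No paired analysis was possible because the groups share only 1 number in their labels, carried by control 4 and knockout 4 and not used. If it names an animal, 1 mouse cannot have both genotypes, so the identity or genotype of 1 of these libraries would be in doubt. Cd47 passed neither limit of a call, with an estimate of 0.47 against 0.5 and an adjusted p of 0.595 in the edgeR fit. With 4 libraries a group, a difference inside a gene's interval cannot be told from none. Itgb4, with 61 to 183 counts, had the widest interval.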

Other observations

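Ly6a (Sca-1, chr15:74994877-74998031), a surface protein found on regenerating intestinal epithelium, was chosen after its values were seen. It had 1, 0, 2 and 4 counts in controls 1 to 4 and 152, 14, 0 and 73 in knockouts 1 to 4. Knockouts 1, 2 and 4 lay above every control and knockout 3 did not. It passed the filter only once knockout 3 was left out, so no test is given.

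Ptprc, which encodes the leukocyte antigen CD45, for which the cells were stained in the sort, had 8.44 to 12.6 normalized CPM in controls 1 and 2 and knockouts 1 and 2, and 1.30 to 3.87 in controls 3 and 4 and knockouts 3 and 4. The ranges of the 2 library sets did not overlap, whereas those of the genotypes did (log2 fold change −0.24, adjusted p = 0.987 by edgeR's quasi-likelihood test).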
